A study of Mus musculus with 72 samples.

Results

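The soleus of control mice was followed over a day by 18 expression arrays of the 72 in the study, 3 at each of ZT0, ZT4, ZT8, ZT12, ZT16 and ZT20. Zeitgeber time (ZT) counts hours from lights on at ZT0, and the lights went off at ZT12. They are all the arrays labelled as control soleus. The soleus is a small calf muscle of slow and fast oxidative fibres that is active in posture and locomotion.

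All animals were C57BL/6 mice, kept at 22 °C in 12 h of light and 12 h of dark with chow freely available, and each soleus array came from a different animal. The labels give the sex under the age tag and the age under the gender tag, and were read as male and 5 months. The controls (Ctrl) were Cre-negative littermates that carry the floxed Bmal1 allele, so they are not plain wild-type mice. For 2 comparisons the tibialis anterior (TA) of the same 18 animals and 18 soleus arrays of mKO mice were used. The mKO mice carry floxed Bmal1 together with Mlc1f-Cre, a recombinase driven by a myosin light chain promoter of skeletal muscle fibres, so that cells of the muscle other than fibres keep the gene. The series was set up to describe the daily course of transcripts in both muscles with and without Bmal1 in the fibres.

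The circadian clock of a cell is a transcriptional loop. The proteins of Arntl (also called Bmal1) and Clock or Npas2 bind E-box sequences and drive the Per, Cry, Nr1d and Dbp genes. Per and Cry proteins then block that drive, while the REV-ERB receptors (Nr1d1, Nr1d2) repress and the ROR receptors activate Arntl. In muscle the loop is joined by daily signals from feeding, activity, body temperature and glucocorticoid hormone, and its outputs include genes for fuel use, insulin response and myogenic regulation.

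Values are the deposited log2 intensities after RMA, a joint normalisation of arrays, for 20239 named genes with 1 probe set each. A difference of 1 is 2-fold, and levels of different genes are not compared, because a probe set's brightness depends on its probes. Rhythm was tested with limma as a cosine of 24 h over the 18 arrays. Its amplitude is the log2 distance from the daily mean to the peak, ± is the standard error of the fit unless SD is named, and adjusted p is the Benjamini-Hochberg value over all genes, with a threshold of 0.05. Each time has 3 animals, each sampled once and none followed over time, so p-values measure the spread between animals and their number limits the precision.

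The array medians ran from 6.70 to 6.78, and the highest correlation between 2 arrays was 0.995. The labelled tissue was borne out by slow fibre genes. Myh7, the slow myosin heavy chain, read 13.06 to 13.30 in the soleus with a median of 13.22, against 6.67 to 7.90 in the TA. Some libraries stood apart from the rest. Alb, the liver's serum albumin, read 9.98 in replicate A at ZT0 and 8.92 and 10.98 in replicates B and C at ZT4, against 5.44 to 6.67 in the other 15 arrays. Myh4, the fastest myosin heavy chain, ranged from 7.90 to 12.35 and was below 10 in 6 arrays, among them all 3 of ZT12. The animals' numbers fall in series called BM3 (12 arrays), BM2* (4) and BM2 (2), whose meaning the labels do not give. No ZT12 animal belongs to BM3, so the series and the time are in part confounded. As a block, the series had 2 levels, BM3 and all others, so BM2* and BM2 were not separated. Where the series as a block moved a count by over 1.5 times or ended a named call, this is given with the result or in the list of genes after the first count.

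A rhythm of 24 h was called for 904 of 20239 genes, 4.47% of those tested. The fitted amplitude of these genes had a median of 0.24, an interquartile range of 0.19 to 0.35 and a maximum of 1.43, while the median over all genes tested was 0.068. In fold terms the median called gene was 1.40-fold higher at its peak than at its trough. An amplitude of 0.5 or more was fitted for 85 genes and one of 1 or more for 11. Among the called genes 783 lay above the median level of all genes, and 25 carry only a gene model name. Time as a factor with 6 levels, which assumes no shape, called 449 genes (2.22%), of which 417 were also called by the cosine, and 231 genes with the series of animals as a block.

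The count of 904 rests in part on the arrays at ZT12 and on the series of animals. With the series as a block 466 genes were called, 446 of them among the 904, and with the 12 BM3 animals alone, which leave ZT12 empty, 244 were called. Without ZT12 the count was 499. Of the 904 peaks 897 stayed within 2 h under the block and 882 did so among BM3 animals. These fits use the same arrays or a part of them, so close peaks are in part built in. Without the 3 arrays that read Alb high, an alternative chosen after seeing the data, 621 genes were called. The mean level of 4 fast fibre genes (Myh4, Pvalb, Actn3 and Mybpc2) ran from 9.07 to 11.59 across arrays, and 625 genes were called with it as a covariate, also chosen after seeing the data. Of 136 genes named here and called, 86 were called among BM3 animals alone and 117 without ZT12. Without the arrays with high Alb 120 were called, and 119 with the fast fibre covariate. With the series as a block 113 of the 136 were called. The others were Tsc22d3, Mir1a-2, Hspa1a, Cirbp, Fos, Foxo1, Sqle, Cyp51, Slc7a2, Gabarapl1, Casq2, Colq, Lrp4, Kcnc1, Kcnc4, Serpinh1, Ephx1, Txnrd1, Kdr, Scx, Hbb-b1, Acta2 and Arrdc3.

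Peaks were not spread evenly over the day. The 4 h around ZT12, the change from light to dark, held 221 peaks or 24.4% of the called genes, and the 4 h around ZT8 held 177 or 19.6%. The 4 h around ZT0 held 159 (17.6%), those around ZT20 149 (16.5%), those around ZT16 122 (13.5%), and those around ZT4 only 76 (8.4%). Light and dark phases held 452 peaks each. The fitted peak of a called gene had a median standard error of 0.73 h, so that genes near a boundary could fall on either side of it. By the time of the highest mean, with no fit, ZT12 led with 285 genes and ZT4 came last with 98. The windows were not counted with the series of animals as a block or without ZT12. As no ZT12 animal is of BM3, the lead of ZT12 cannot be told apart from the series.

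**Figure D1:**
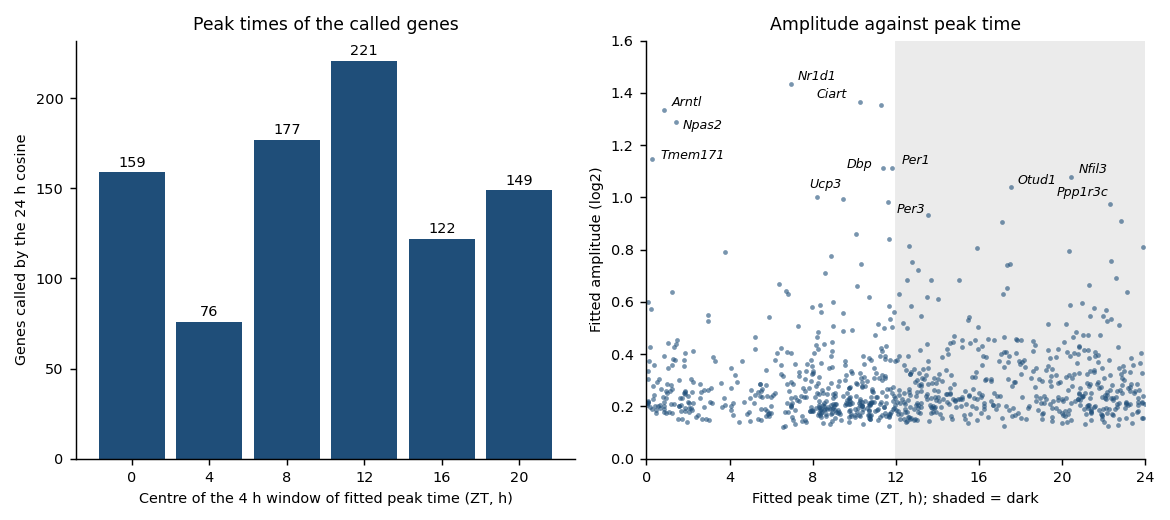
Left, number of genes called by the 24 h cosine in control soleus (904 genes) in each 4 h window of fitted peak time, with bars starting at 0. Right, fitted amplitude in log2 units against fitted peak time for the same genes, 1 point per gene, with the dark phase shaded. The window around ZT12 holds 221 genes and that around ZT4 holds 76, and the amplitudes of 1 or more belong to 11 genes.

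The positive limb of the clock was high around lights on. Arntl read 9.09, 8.97 and 9.27 at ZT0, 8.77, 8.76 and 8.96 at ZT4, 7.53, 7.15 and 7.18 at ZT8, 6.55, 6.57 and 6.55 at ZT12, 7.29, 6.68 and 6.92 at ZT16, and 8.05, 8.22 and 8.10 at ZT20. The 3 arrays of ZT12 were the lowest of all 18, and those of ZT0 the highest. The fit gave Arntl an amplitude of 1.34 ± 0.057 with a peak at ZT0.86 ± 0.16 h, a 6.37-fold change from trough to peak and the smallest adjusted p of all genes (3.04e-11). Npas2, the paralogue that can stand in for Clock, read 8.14, 8.46 and 8.81 at ZT0, 8.58, 8.34 and 8.48 at ZT4, 6.67, 6.54 and 6.35 at ZT8, 6.35, 6.14 and 6.37 at ZT12, 6.38, 6.14 and 6.19 at ZT16, and 7.11, 7.05 and 7.26 at ZT20. Its values from ZT8 to ZT16 stayed between 6.14 and 6.67, below every array of the other 3 times, and its amplitude was 1.29 ± 0.10 with a peak at ZT1.41 ± 0.30 h (adjusted p = 2.39e-07). Clock itself ranged from 8.75 to 9.74 with a median of 9.21, moved in the same phase and far less, with an amplitude of 0.41 ± 0.037 and a peak at ZT2.23 ± 0.35 h (adjusted p = 1.52e-06).

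All 6 measured repressors of the period, cryptochrome and Ciart group were called, against 4.47% of all genes. Per3 read 7.23, 7.39 and 7.09 at ZT0, 7.68, 7.62 and 7.62 at ZT4, 8.87, 8.79 and 8.88 at ZT8, 9.08, 9.16 and 9.29 at ZT12, 8.50, 8.46 and 8.43 at ZT16, and 7.86, 7.57 and 7.65 at ZT20. Its ZT12 arrays were above all others and its ZT0 arrays below all others, with an amplitude of 0.98 ± 0.045, a peak at ZT11.6 ± 0.18 h and an adjusted p of 6.95e-11. Per1, the period gene that also responds to acute signals, was 7.56, 7.68 and 7.56 at ZT0 and 9.73, 9.89 and 9.67 at ZT12, with an amplitude of 1.11 ± 0.097 and a peak at ZT11.8 ± 0.33 h (adjusted p = 9.29e-07). Per2 came later than its relatives. Its lowest mean was at ZT4 (6.58, 6.84 and 6.66), and its values overlapped between ZT12 (8.48, 8.51 and 8.58) and ZT16 (8.63, 8.06 and 8.10), with an amplitude of 0.93 ± 0.062 and a peak at ZT13.6 ± 0.25 h (adjusted p = 2.78e-08). Ciart, which encodes a repressor that binds the Arntl complex, split into high arrays at ZT8 and ZT12 (8.04 to 8.84) and low arrays at the other 4 times (5.59 to 6.69), with an amplitude of 1.36 ± 0.15 and a peak at ZT10.3 ± 0.41 h (adjusted p = 1.26e-05).

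The cryptochromes differed from each other in phase. Cry2 peaked with Per1 at ZT11.7 ± 0.69 h with an amplitude of 0.38 ± 0.068 (adjusted p = 0.00466). Cry1 had its lowest mean at ZT4 (7.11, 7.20 and 7.18) and its highest at ZT0 (7.58, 7.62 and 7.83), where it overlapped with ZT20 (7.66, 7.76 and 7.59), and the cosine placed its peak at ZT19.6 ± 0.81 h with an amplitude of 0.22 ± 0.047 (adjusted p = 0.0193). The Cry1 call was the weaker of the pair, since it was lost without replicate B at ZT20 (adjusted p = 0.0562), without the arrays with high Alb (0.0842) and with the fast fibre covariate (0.0671). The calls of Cry2 and Rora were made with the series as a block but not among BM3 animals alone.

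Nr1d1, which encodes REV-ERBα, had the largest fitted amplitude of all genes called. It read 10.45, 9.77 and 10.64 at ZT0, 11.62, 11.48 and 11.66 at ZT4, 12.01, 11.52 and 11.51 at ZT8, 10.95, 10.95 and 10.84 at ZT12, 9.79, 9.33 and 9.69 at ZT16, and 8.88, 8.84 and 8.83 at ZT20. The ZT20 arrays were the lowest, and those of ZT4 and ZT8 overlapped at the top, with an amplitude of 1.43 ± 0.084, a peak at ZT6.95 ± 0.22 h and a 7.3-fold change (adjusted p = 3.7e-09). Nr1d2, the gene of REV-ERBβ, peaked at ZT11.7 ± 0.26 h, close to the period genes rather than to Nr1d1, with an amplitude of 0.58 ± 0.039 (adjusted p = 2.91e-08). Of the ROR receptors that act on the same elements, Rora was called with an amplitude of 0.22 ± 0.037 and a peak at ZT14.1 ± 0.65 h (adjusted p = 0.00243). Rorb was not (amplitude 0.029 ± 0.045, adjusted p = 0.945).

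The PAR bZIP factors, activators of D-box sequences, peaked between ZT11 and ZT14. Dbp read 7.92, 8.45 and 8.45 at ZT0, 10.58, 10.47 and 10.41 at ZT8 and 10.49, 9.81 and 10.67 at ZT12, with an amplitude of 1.11 ± 0.095 and a peak at ZT11.4 ± 0.33 h (adjusted p = 7.87e-07). Tef (amplitude 0.50 ± 0.045, peak ZT11.8 ± 0.34 h) and Hlf (0.55 ± 0.064, peak ZT13.2 ± 0.44 h) had smaller amplitudes. Nfil3, whose protein represses the same D-box sequences, peaked later than Dbp, Tef and Hlf, in the dark phase. It read 8.70, 8.87 and 8.91 at ZT0, 7.43, 7.28 and 7.37 at ZT4, 6.55, 6.27 and 7.05 at ZT8, 7.46, 7.21 and 7.61 at ZT12, 8.71, 7.89 and 8.35 at ZT16, and 8.64, 8.85 and 8.50 at ZT20, so that its ZT8 arrays lay below all others, with an amplitude of 1.08 ± 0.096 and a peak at ZT20.4 ± 0.34 h (adjusted p = 1.13e-06).

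**Figure D2:**
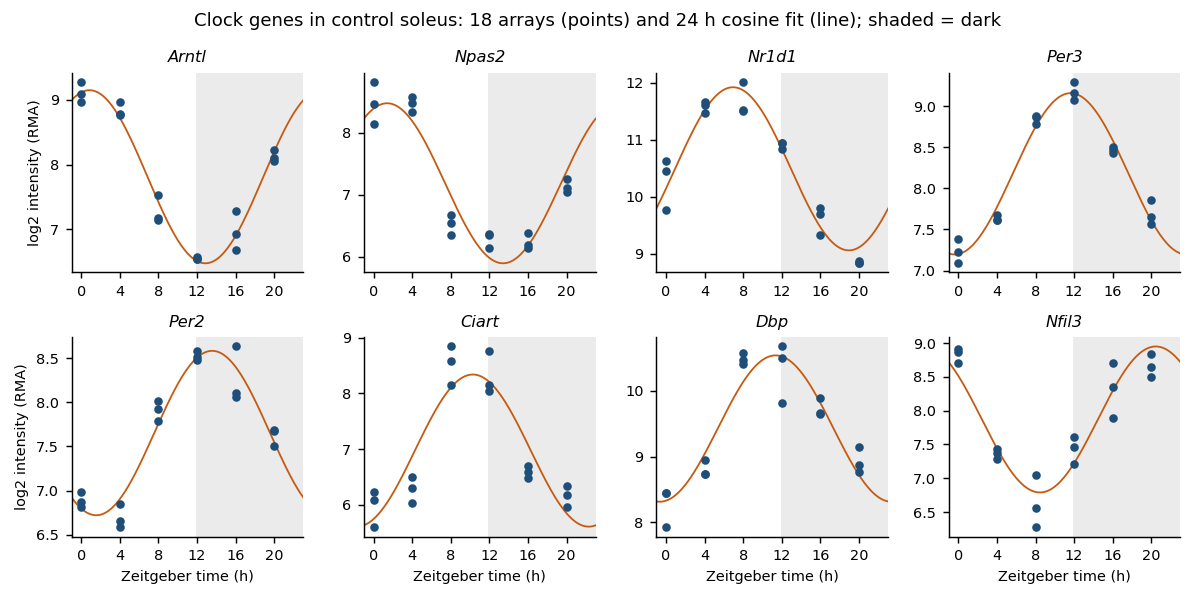
Log2 intensity of 8 clock genes in the 18 control soleus arrays against Zeitgeber time in hours, 1 point per array, with the fitted 24 h cosine as a line and the dark phase shaded. Vertical axes differ between panels. Arntl and Npas2 are highest at ZT0 and ZT4, Nr1d1 at ZT4 and ZT8, Ciart at ZT8 and ZT12, the period genes and Dbp at ZT8 to ZT16, and Nfil3 from ZT16 to ZT0.

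Bhlhe41, a repressor of the Dec pair, was called with an amplitude of 0.75 ± 0.10 and a peak at ZT10.3 ± 0.53 h (adjusted p = 0.00032). Its partner Bhlhe40 was not, with an adjusted p of 0.457, although its ZT8 arrays (9.81, 9.55 and 9.52) were above all 15 others. Of 10 clock kinases and ubiquitin-handling genes 2 were called. They were Usp2, a deubiquitinating enzyme (amplitude 0.62 ± 0.054, peak ZT13.5 ± 0.33 h), and Csnk1e, a kinase of period proteins (0.20 ± 0.033, peak ZT16.2 ± 0.63 h). Csnk1d, Csnk2a1, Gsk3b, Btrc, Fbxw11, Fbxl21, Timeless and Tipin had fitted amplitudes of 0.033 to 0.074 and adjusted p of 0.499 or more. The median amplitude of the 10 was 0.058, below the 0.068 of all genes.

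Of 7 measured genes that are rhythmic in many tissues 4 were called. Wee1, a cell cycle kinase, had an amplitude of 0.68 ± 0.076 and a peak at ZT13.7 ± 0.42 h. Tspan4, a tetraspanin, had 0.69 ± 0.047 at ZT12.5 ± 0.26 h, Coq10b, a coenzyme Q binding protein, had 0.47 ± 0.038 at ZT11.0 ± 0.30 h, and Tsc22d3, a glucocorticoid target, had 0.44 ± 0.056 at ZT13.5 ± 0.49 h. Nampt, which makes the NAD precursor and is rhythmic in liver, read 10.70 to 11.08 with a median of 10.84 over the 18 arrays, with an amplitude of 0.011 ± 0.037 (adjusted p = 0.988). Leo1 and Lgalsl were not called either (adjusted p = 0.254 and 0.61).

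The promoters of called genes were searched for the letters that these factors are known to bind, in the 250 bases before the gene start in RefSeq's GRCm38.p6. The motifs were the E-box CACGTG, the D-box TTATGTAA or TTACGTAA, and the ROR element TAGGTCA or TGGGTCA, on both strands, and no motif contains another. A promoter was listed for 15651 of the 20239 genes and 707 of the 904 called. Several starts were listed for 2616 genes, and a gene counted if the letters were before any of them. Whether called genes have more listed starts was not examined. By this count the E-box letters were in 8.08% of the 15651 genes, 12.87% of the 707 called and 15.98% of the 169 with a peak around ZT12. The D-box letters were in 1.01% of all, 0.85% of the called and 2.37% of the ZT12 window (4 genes), and the ROR element in 5.6% of all and 6.08% of the called. Such matches describe letters and show no binding.

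Stretches of 9 called genes are shown as examples of promoters with these letters, with 30 bases on each side where the window allows. They were picked from a longer set and show no link of motif and phase. The ROR element was also in the windows of Slc25a22, Nrip1, Klhl33 and Glul, with peaks at ZT7.97, ZT13.4, ZT15.2 and ZT17.2. E-boxes were also in genes not shown, some with peaks near ZT12 (Tef, Bhlhe41, Gadd45g) and some far from it (Slc41a3, Otud1, Irs1). They read along the gene's strand with the motifs in capitals. Per1, Ciart, Coq10b and Tspan4 hold an E-box and peaked between ZT10 and ZT13, and Coq10b also holds a D-box on the other strand. Per3 holds 2 D-boxes. Nfil3 and Rxrg, with peaks at ZT20.4 and ZT1.37, hold a ROR element on the other strand, and Cry1 and Ppp1r3c, with peaks at ZT19.6 and ZT22.3, hold an E-box although their peaks lie elsewhere.
Per1: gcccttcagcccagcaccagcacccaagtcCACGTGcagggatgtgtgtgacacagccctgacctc
Ciart: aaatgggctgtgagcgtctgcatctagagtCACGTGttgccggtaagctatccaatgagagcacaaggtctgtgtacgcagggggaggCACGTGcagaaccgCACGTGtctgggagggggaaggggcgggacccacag
Coq10b: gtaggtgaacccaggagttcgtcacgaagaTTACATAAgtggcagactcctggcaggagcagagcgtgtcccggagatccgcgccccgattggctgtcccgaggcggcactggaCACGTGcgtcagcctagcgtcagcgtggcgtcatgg
Tspan4: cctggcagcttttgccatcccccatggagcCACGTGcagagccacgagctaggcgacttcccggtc
Per3: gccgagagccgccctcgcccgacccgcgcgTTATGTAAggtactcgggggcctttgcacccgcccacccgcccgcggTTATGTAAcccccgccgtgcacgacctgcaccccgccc
Nfil3: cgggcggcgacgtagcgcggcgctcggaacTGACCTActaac
Rxrg: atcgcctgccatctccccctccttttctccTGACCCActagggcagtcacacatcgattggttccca
Cry1: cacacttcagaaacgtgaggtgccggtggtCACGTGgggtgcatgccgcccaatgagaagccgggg
Ppp1r3c: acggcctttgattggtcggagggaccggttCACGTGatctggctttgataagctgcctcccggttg

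These stretches lie at chr11:69098753-69098818 (Per1, plus strand), chr3:95882237-95882374 (Ciart, minus), chr1:55052578-55052727 (Coq10b, plus), chr7:141476299-141476364 (Tspan4, plus) and chr4:151044786-151044900 (Per3, minus). Those of the others lie at chr13:52981040-52981081 (Nfil3, minus), chr1:167598187-167598253 (Rxrg, plus), chr10:85185079-85185144 (Cry1, minus) and chr19:36736673-36736738 (Ppp1r3c, minus). The 3 E-boxes of Ciart lie within 116 bases of its start. None of the motifs was in the window of Arntl, Npas2, Clock, Nr1d1, Nr1d2, Dbp or Hlf, which says only that these letters are not in these 250 bases.

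The number of genes called differed between the steps of the day. Between neighbouring times the called genes were 17 from ZT0 to ZT4 (0.084%, 7 higher and 10 lower), 33 from ZT4 to ZT8 (0.163%, 23 and 10) and 3 from ZT8 to ZT12 (0.0148%, all higher). They were 53 from ZT12 to ZT16 (0.262%, 23 and 30), 5 from ZT16 to ZT20 (0.0247%, 4 and 1) and 8 from ZT20 to ZT0 (0.0395%, 5 and 3). The step from ZT12 to ZT16 held the most calls, but this order depended on the arrays and the fit. With the fast fibre covariate it had 18 calls, against 30 from ZT4 to ZT8, and without replicate B at ZT12 it had 14 against 37. Without replicate C at ZT12 the counts were 31 and 36. With the series of animals as a block the step had 48 calls, while those from ZT8 to ZT12 and from ZT16 to ZT20 had 0 and 2. It had 50 without the 3 arrays with high Alb. Without those arrays the counts from ZT0 to ZT4, from ZT4 to ZT8, from ZT8 to ZT12 and from ZT20 to ZT0 were 1, 15, 0 and 1. Array weights gave 79, 56, 10, 969, 406 and 20 calls for the steps in the order given. At an unadjusted p under 0.05 in limma the steps had 1209, 831, 1232, 2007, 748 and 998 genes. There the step from ZT8 to ZT12 was above that from ZT4 to ZT8, so the counts of calls are no measure of speed. In all, 98 genes were called in at least 1 step.

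Clock genes had the largest changes from ZT4 to ZT8. From ZT4 to ZT8 Ciart rose by 2.25 ± 0.20 (adjusted p = 1.19e-05), Dbp by 1.68 ± 0.18 and Per1 by 1.48 ± 0.18. In the same step Npas2 changed by -1.94 ± 0.14 (adjusted p = 1.26e-06), Arntl by -1.54 ± 0.13 and Tmem171 by -1.33 ± 0.16. From ZT0 to ZT4 the largest falls were those of Otud1 (-1.49 ± 0.19, a deubiquitinating enzyme), Nfil3 (-1.47 ± 0.19) and Cth (-0.85 ± 0.11, which makes cysteine from cystathionine). Rises in that step were led by Mrgpra9 (1.47 ± 0.22), a dim probe set with a mean of 3.18 at ZT0, by Ucp3 (1.33 ± 0.19) and by Nr1d1 (1.30 ± 0.18). The Mrgpra9 call was lost without any 1 of 5 arrays and the Ucp3 call without replicate B at ZT4 (adjusted p = 0.055). From ZT8 to ZT12 the 3 genes called were Wee1 (0.9985 ± 0.13), Otud1 (1.20 ± 0.19) and Klhl33 (0.63 ± 0.096), and these calls were lost without any 1 of 2, of 12 and of 11 arrays and, all of them, with the series as a block.

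From ZT12 to ZT16 the largest rise was that of Ppp1r3c, the glycogen-targeting subunit of protein phosphatase 1, by 1.28 ± 0.12 (adjusted p = 7.15e-05). Ciart changed by -1.74 ± 0.20, Nr1d1 by -1.31 ± 0.18 and Per1 by -1.07 ± 0.18, the last with a call that was lost without any 1 of 3 arrays. Sv2b and Mettl21e also rose past the threshold, and their calls were lost without any 1 of 13 and of 14 arrays and with the series as a block. In the late dark phase Arntl rose by 1.16 ± 0.13 from ZT16 to ZT20 and Per3 changed by -0.77 ± 0.093. In that step Tmem171 rose by 1.03 ± 0.16 and Npas2 by 0.90 ± 0.14, calls that were lost with the series as a block. They were also lost without any 1 of 11 and of 8 arrays. From ZT20 to ZT0 Nr1d1 rose by 1.44 ± 0.18, Npas2 by 1.33 ± 0.14 and Cdkn1a, the cell cycle inhibitor p21, by 1.03 ± 0.14 (adjusted p = 0.0043, and 0.0503 without replicate C at ZT0). The largest falls in that step were those of Per2 (-0.73 ± 0.12, adjusted p = 0.0493), Map2k6, a kinase that activates p38 (-0.59 ± 0.081, adjusted p = 0.0043), and Rell1 (-0.49 ± 0.085, adjusted p = 0.0493), the last lost with the series as a block. The calls of Per2, Map2k6 and Rell1 were lost without any 1 of 15, of 2 and of 15 arrays. Over the day Map2k6 had an amplitude of 0.34 ± 0.047 with a peak at ZT12.9 ± 0.52 h, and Rell1 of 0.31 ± 0.039 with a peak at ZT16.6 ± 0.49 h.

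Of the times 12 h apart, ZT12 and ZT0 differed most. There 397 genes were called (1.96%), 221 higher at ZT12 and 176 lower. The other pairs gave 186 calls for ZT16 against ZT4 (0.919%, 119 higher and 67 lower) and 170 for ZT20 against ZT8 (0.84%, 80 and 90). With the series of animals as a block the ZT12 to ZT0 count was 87, below the 114 and 135 of the other pairs, so that the order did not hold. Nor did it hold with array weights, which called 621, 1280 and 406 genes for the pairs in the order given. Without the 3 arrays with high Alb the counts were 232, 52 and 147. Leaving out single arrays moved the pairs to between 223 and 449, between 109 and 203, and between 83 and 192 calls. The largest differences between ZT0 and ZT12 were those of Arntl (-2.55 ± 0.13), Ciart (2.35 ± 0.20) and Tmem171 (-2.25 ± 0.16). Between ZT8 and ZT20 they were those of Nr1d1 (-2.83 ± 0.18), Ciart (-2.37 ± 0.20) and Nfil3 (2.04 ± 0.19), and Otud1 led the rises from ZT4 to ZT16 (2.12 ± 0.19). Levels of marker genes of other cells also differed between times, given as means of log2 values over each list. The mean of 10 endothelial genes was 9.38 at ZT0 and 9.19 at ZT12, that of 4 erythroid genes 6.76 and 6.40, that of 8 smooth muscle genes 8.49 and 8.37, and that of 5 Schwann cell genes 7.50 and 7.41. Each of these 4 was highest at ZT0 and lowest at ZT12 among the 6 time means. The other lists had other extremes. The means of 7 adipocyte and 9 macrophage genes were highest at ZT12 (7.65 and 7.49) and lowest at ZT8 (7.35 and 7.19). Those of 11 fibroblast and tendon genes and 7 satellite cell genes were highest at ZT16 (9.401 and 7.38) and lowest at ZT8 (9.11 and 7.26). The mean of 10 lymphocyte and granulocyte genes was highest at ZT4 (5.345) and lowest at ZT12 (5.237), that of 10 liver genes highest at ZT4 (6.50) and lowest at ZT8 (5.49), and that of 7 proliferation genes highest at ZT16 (5.516) and lowest at ZT4 (5.445). Their part in the ZT12 count was not tested. In whole muscle, fewer cells of a type and less RNA per cell cannot be told apart.

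No gene departed from the cosine past the threshold in limma (0 of 20239, 0%), while 753 had an unadjusted p under 0.05. Array weights, an alternative estimate, called 18. The smallest adjusted p was that of Vmn2r4, a vomeronasal receptor gene with a dim probe set (0.125). Among clock genes, the sharp switches of Npas2 and Ciart gave adjusted p of 0.257 and 0.257 for departure. Mt2, a metal-binding metallothionein, was called by time as a factor only (adjusted p = 0.0393, against 0.838 for the cosine). Its ZT20 arrays (9.95, 9.46 and 9.94) lay below all others except replicate A at ZT8 (9.90). The other genes of smallest p for departure were Gbp7, an interferon-induced GTPase (adjusted p = 0.626, ZT0 arrays below all others), Mrgpra9 (0.626), Iglc2, an immunoglobulin light chain (0.69), Hoxd13 (1), Tiparp (1) and Olfr52, an olfactory receptor gene with a dim probe set (1).

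In all, 45 gene lists, the clock groups and marker lists included, held 573 measured genes. They were drawn up with earlier results of these data known, so a high share called in a list is in part fixed by that choice and is a description. The glucocorticoid-responsive list had 16 of 20 called and a median amplitude of 0.34, against 4.47% and 0.068 over all genes. Shares near that background, from 5.6% to 6.7%, were those of the heat shock, glycolysis, fast fibre and NAD lists, with 1 call each, and say nothing of these groups. Every list count below is to be read beside the share of all genes, 4.47% in the main fit. Of all 20239 genes, 466 were called with the series as a block and 244 among BM3 animals alone, so list counts fall there too. With the series as a block, the matrix, redox, slow fibre and endothelial lists had 1 call each. Per1 and Tsc22d3 are also in the clock lists. Of the 16, 13 had a fitted peak from ZT11 to ZT19, among them Sgk1, a kinase of salt and glucose transport (8.18, 8.26 and 8.44 at ZT4, 9.08, 8.95 and 9.39 at ZT12, amplitude 0.47 ± 0.050, peak ZT14.8 ± 0.40 h), and Ddit4, an inhibitor of mTOR signalling (amplitude 0.54 ± 0.064, peak ZT11.7 ± 0.46 h). The other 3 peaked in the light phase, namely Fbxo32, the atrophy ubiquitin ligase atrogin-1 (0.33 ± 0.039, peak ZT8.04 ± 0.46 h), Pdk4 and Cdkn1a. The 4 not called were Mt1, Mt2, Trim63 and Errfi1. With the series of animals as a block 10 of the 20 were called, and 7 among BM3 animals.

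**Figure D3:**
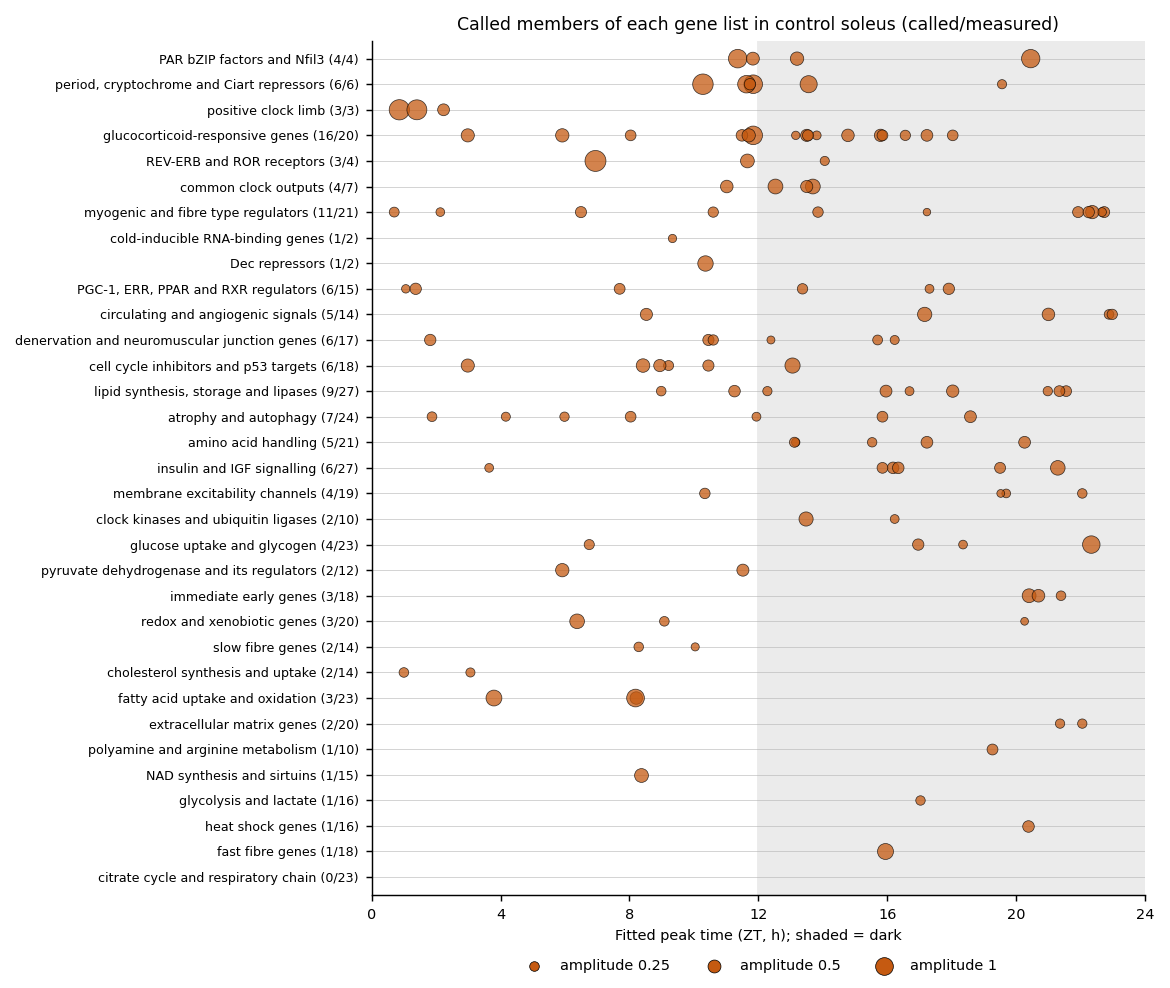
Fitted peak time in Zeitgeber hours of each called member (points) of the 33 functional gene lists in control soleus, with point area growing with the log2 amplitude and the dark phase shaded. Lists are ordered by the share called, with called and measured members in brackets, from 3 clock groups with all members called at the top, through the glucocorticoid-responsive list (16 of 20), to the citrate cycle and respiratory chain (0 of 23) at the bottom.

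Of 23 genes of fatty acid uptake and oxidation 3 were called, all with a peak in the light phase, and the median amplitude of the list was 0.055. Ucp3, the muscle uncoupling protein, read 8.29, 7.65 and 8.55 at ZT0, 9.36, 9.78 and 9.34 at ZT4, 9.46, 9.18 and 9.63 at ZT8, 9.04, 9.41 and 9.41 at ZT12, 8.55, 8.37 and 8.71 at ZT16, and 7.39, 7.41 and 7.58 at ZT20. All 3 arrays of ZT20 were below the other 15, with an amplitude of 1.003 ± 0.10, a peak at ZT8.19 ± 0.39 h and a 4.01-fold change (adjusted p = 7.11e-06). Angptl4, a secreted inhibitor of lipoprotein lipase, was 7.94, 8.14 and 7.54 at ZT4, above all other arrays, and 6.03, 6.18 and 6.23 at ZT16, with an amplitude of 0.79 ± 0.11 and a peak at ZT3.80 ± 0.55 h (adjusted p = 0.000441). Cpt1a, the liver-type enzyme of fatty acid entry into mitochondria, had an amplitude of 0.47 ± 0.070 and a peak at ZT8.21 ± 0.57 h.

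Control of pyruvate entry moved in parts. Pdk4, the kinase that shuts pyruvate dehydrogenase, read 12.63, 12.53 and 12.81 at ZT0, 13.32, 13.52 and 13.32 at ZT4, 13.08, 12.51 and 13.23 at ZT8, 12.44, 12.80 and 12.78 at ZT12, 12.37, 12.29 and 12.53 at ZT16, and 12.05, 12.13 and 11.97 at ZT20. The ZT4 arrays were the highest and the ZT20 arrays the lowest, with an amplitude of 0.54 ± 0.076 and a peak at ZT5.92 ± 0.54 h (adjusted p = 0.000405). Pdp1, the phosphatase that opens the same complex, peaked at ZT11.5 ± 0.37 h with an amplitude of 0.43 ± 0.042 (adjusted p = 4.38e-06). The other 10 of 12 genes, which include the enzyme's subunits, were not called. None of 23 citrate cycle and respiratory chain genes was called (1 with an unadjusted p under 0.05), and their median amplitude was 0.054. The smallest adjusted p among them was that of Suclg1 (0.218).

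Among 23 genes of glucose uptake and glycogen 4 were called. Ppp1r3c read 11.89, 11.62 and 11.55 at ZT0, 10.87, 11.04 and 11.20 at ZT4, 10.16, 10.25 and 10.01 at ZT8, 9.90, 9.75 and 9.61 at ZT12, 11.18, 11.08 and 10.84 at ZT16, and 11.55, 11.66 and 11.51 at ZT20. The ZT12 arrays were below all others, those of ZT0 and ZT20 were the highest, and the amplitude was 0.98 ± 0.065 with a peak at ZT22.3 ± 0.26 h (adjusted p = 2.78e-08). Tbc1d1 and Tbc1d4 encode the Rab GTPase-activating proteins that hold glucose transporter vesicles back, and their phases were far apart. Tbc1d1 was 8.14, 7.98 and 8.27 at ZT4 and 8.96, 8.77 and 8.89 at ZT16, with an amplitude of 0.37 ± 0.046 and a peak at ZT17.0 ± 0.47 h (adjusted p = 8.77e-05). Tbc1d4 had an amplitude of 0.29 ± 0.056 and a peak at ZT6.75 ± 0.75 h (adjusted p = 0.00929), lost with the fast fibre covariate. Phka1, a phosphorylase kinase subunit, had an amplitude of 0.19 ± 0.043 (adjusted p = 0.0255), a call lost without any 1 of 6 arrays. Slc2a4, the insulin-responsive glucose transporter, and the hexokinases Hk1 and Hk2 were not called. Of 16 glycolysis and lactate genes (6.2% called) the 1 called was Slc16a1, a lactate transporter (amplitude 0.24 ± 0.046, peak ZT17.0 ± 0.73 h).

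Of 27 insulin and IGF signalling genes 6 were called, 5 of them with a peak in the dark phase. With the series of animals as a block 4 of the 27 were called. Irs1, the insulin receptor substrate, read 9.43, 9.55 and 9.63 at ZT0, 9.05, 8.55 and 8.80 at ZT4, 8.69, 8.21 and 8.38 at ZT8, 8.50, 8.26 and 8.40 at ZT12, 9.63, 8.74 and 9.21 at ZT16, and 9.52, 9.62 and 9.45 at ZT20. Its values at ZT8 and ZT12 (8.21 to 8.69) lay below those of ZT0 and ZT20 (9.43 to 9.63), with an amplitude of 0.66 ± 0.070 and a peak at ZT21.3 ± 0.40 h (adjusted p = 1.11e-05). Pik3r1, the regulatory subunit of PI3 kinase (0.39 ± 0.050, peak ZT16.2 ± 0.49 h), Trib1, a pseudokinase (0.39 ± 0.056, peak ZT16.3 ± 0.55 h), and Foxo1, a transcription factor held back by insulin (0.33 ± 0.063, peak ZT15.8 ± 0.73 h), came some hours earlier. The Foxo1 call was lost under the block.

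Of 27 genes of lipid synthesis, storage and lipases 9 were called, and 2 of the 27 among BM3 animals, with a median amplitude of 0.165 for the list. Gpam, the first enzyme of glycerolipid synthesis, peaked at ZT11.3 ± 0.41 h (amplitude 0.39 ± 0.042), and Dgat2, the last enzyme of triglyceride synthesis, at ZT16.0 ± 0.41 h (0.42 ± 0.045, adjusted p = 1.44e-05). Dgat2 was 10.69, 11.09 and 10.84 at ZT4 and 11.77, 11.72 and 11.75 at ZT16, without overlap. Acaca, which makes malonyl-CoA, peaked at ZT21.6 ± 0.63 h (0.33 ± 0.055), and Elovl5, a fatty acid elongase, at ZT21.0 ± 0.70 h (0.23 ± 0.043). In cholesterol synthesis 2 of 14 genes were called, Sqle (0.25 ± 0.053, peak ZT1.002 ± 0.81 h) and Cyp51 (0.22 ± 0.050, peak ZT3.07 ± 0.88 h), and neither was called with the series as a block.

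**Figure D4:**
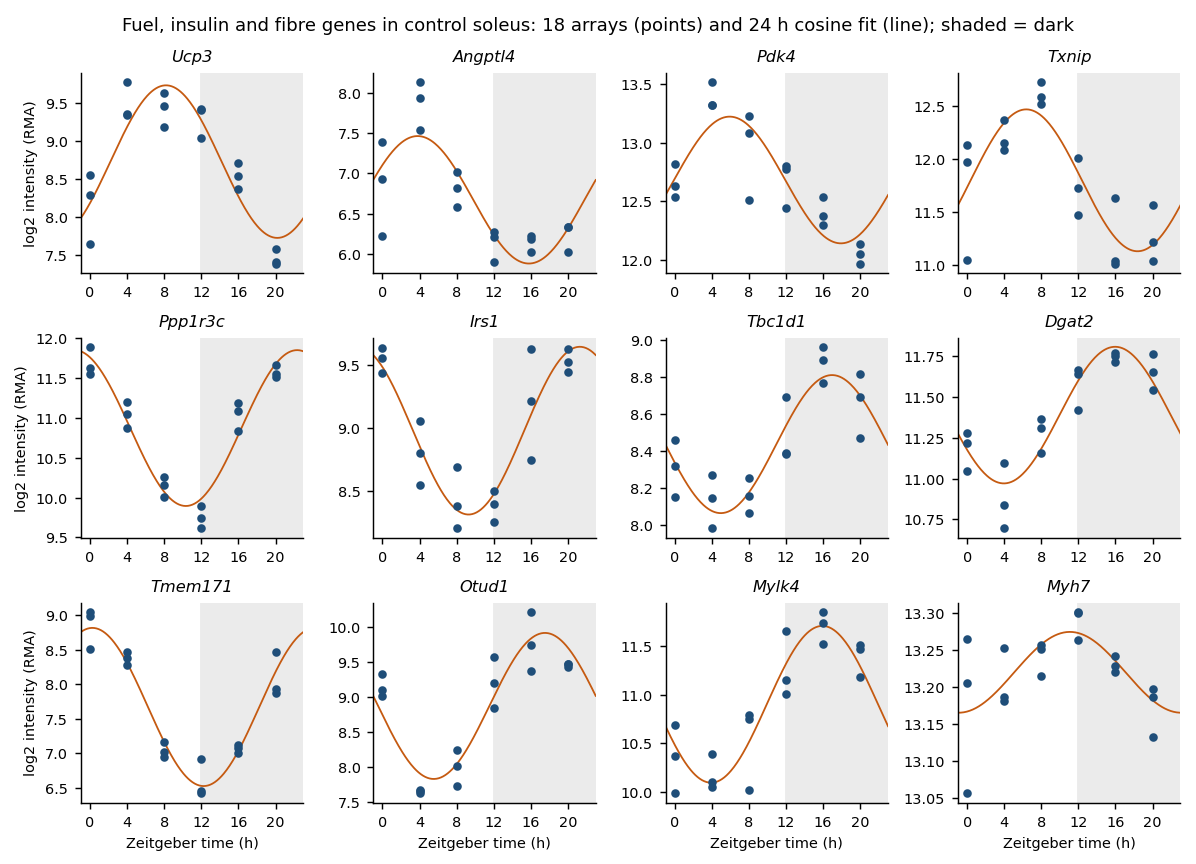
Log2 intensity of 12 genes in the 18 control soleus arrays against Zeitgeber time in hours, 1 point per array, with the fitted 24 h cosine as a line and the dark phase shaded. Vertical axes differ between panels. Ucp3, Angptl4, Pdk4 and Txnip are high in the light phase, Tbc1d1, Dgat2, Otud1 and Mylk4 in the dark phase and Ppp1r3c, Irs1 and Tmem171 around the end of the dark phase, while Myh7 spans only 13.06 to 13.30.

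Regulators of oxidative metabolism showed 6 of 15 called, and 2 of 15 among BM3 animals. Rxrg, a retinoid X receptor, had the clearest rhythm of them, from 9.43, 9.46 and 9.51 at ZT0 to 8.82, 8.75 and 8.72 at ZT12, with an amplitude of 0.38 ± 0.031 and a peak at ZT1.37 ± 0.31 h (adjusted p = 3.99e-07). Nrip1, a corepressor, had 0.30 ± 0.047 at ZT13.4 ± 0.59 h, Ppargc1b, a PGC-1 coactivator, 0.34 ± 0.056 at ZT7.70 ± 0.63 h, and Ppara, a fatty acid receptor, 0.38 ± 0.063 at ZT17.9 ± 0.64 h. In the list of NAD and sirtuin genes 1 of 15 was called (6.7%). That was Nmrk2, the muscle kinase of nicotinamide riboside, with 0.59 ± 0.075 at ZT8.36 ± 0.48 h (adjusted p = 0.00012). Txnip, an inhibitor of thioredoxin and of glucose uptake, peaked at ZT6.38 ± 0.54 h with an amplitude of 0.67 ± 0.094 (adjusted p = 0.000406). It was among 3 of 20 redox genes called, with Ephx1 and Txnrd1 at adjusted p of 0.0193 and 0.0312, whose calls were lost without any 1 of 2 and of 8 arrays.

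Amino acid genes showed 5 of 21 called, and 3 with the series as a block. Slc38a2, an amino acid transporter that responds to starvation, was 10.66, 10.67 and 10.81 at ZT12 and 11.54, 11.48 and 11.42 at ZT16, with an amplitude of 0.41 ± 0.049 and a peak at ZT20.3 ± 0.46 h (adjusted p = 6.95e-05). Glul, glutamine synthetase, had 0.41 ± 0.055 at ZT17.2 ± 0.51 h, Prodh, proline dehydrogenase, 0.24 ± 0.037 at ZT15.5 ± 0.60 h, and Slc7a2, a transporter of basic amino acids, 0.28 ± 0.046 at ZT13.1 ± 0.62 h. Smox, an oxidase of spermine, was the only call of 10 polyamine genes (0.34 ± 0.063, peak ZT19.2 ± 0.72 h).

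Of 21 myogenic and fibre type regulators 11 were called, with a median amplitude of 0.152 for the list, and 7 with the series as a block. The 4 of smallest p peaked close together near lights on. Rcan1, an inhibitor of calcineurin, was 11.65, 11.50 and 11.58 at ZT0 and 10.61, 10.62 and 10.46 at ZT12, with an amplitude of 0.54 ± 0.053 and a peak at ZT22.4 ± 0.37 h (adjusted p = 4.61e-06). Vgll2, a cofactor of TEAD factors, had 0.38 ± 0.050 at ZT22.2 ± 0.50 h, Myf6, a myogenic regulatory factor, 0.35 ± 0.048 at ZT22.7 ± 0.52 h, and Eya1, a transcriptional coactivator of muscle development, 0.27 ± 0.035 at ZT0.70 ± 0.50 h. The contractile genes themselves moved little. Of 14 slow fibre genes 2 were called, Casq2, which buffers calcium (0.25 ± 0.055), and Myh7b, a slow myosin (0.16 ± 0.036), lost without any 1 of 5 and of 11 arrays and both lost with the fast fibre covariate. None of the 14 general fibre genes was called, with a median amplitude of 0.031.

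Of 18 fast fibre genes (5.6% called, near the 4.47% of all genes) the 1 called was Mylk4, a myosin light chain kinase. It read 10.69, 9.98 and 10.37 at ZT0, 10.10, 10.39 and 10.05 at ZT4, 10.02, 10.75 and 10.79 at ZT8, 11.15, 11.01 and 11.65 at ZT12, 11.52, 11.74 and 11.85 at ZT16, and 11.51, 11.19 and 11.46 at ZT20. All arrays from ZT12 to ZT20 were above all from ZT0 to ZT8, with an amplitude of 0.80 ± 0.082, a peak at ZT15.9 ± 0.39 h and an adjusted p of 7.11e-06. Of the other members, Myh4, Pvalb (9.56 to 11.99), Actn3 (9.26 to 11.55) and Mybpc2 (9.13 to 10.68) varied widely between animals, and Myh4 was low in all 3 arrays of ZT12, where Mylk4 was already high. Others spanned little, such as the calcium pump Atp2a1 (13.71 to 13.83) and the light chain Myl1 (13.57 to 13.80).

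The lists of synapse and membrane genes had median amplitudes of 0.094 and 0.097, against 0.068 over all genes. Of 17 denervation and neuromuscular junction genes 0 were called in BM3 animals alone, where 244 of all 20239 genes were. Over the 18 arrays 6 of the 17 were called (35.3%, against 4.47% of all genes). They included Colq, the collagen tail of acetylcholinesterase (0.38 ± 0.064, peak ZT1.82 ± 0.65 h), Hdac4, a deacetylase that responds to denervation (0.30 ± 0.042, peak ZT10.6 ± 0.54 h), Gadd45a (0.36 ± 0.052, peak ZT10.4 ± 0.54 h) and Lrp4, the agrin receptor (0.15 ± 0.030, peak ZT12.4 ± 0.76 h). Of 19 membrane excitability genes 4 were called, all potassium channels, with amplitudes from 0.14 for Kcnq5 to 0.31 for Kcnn3. With the fast fibre covariate 1 of the 19 was called and with the series as a block 2.

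Growth and breakdown genes were called in part. Of 24 atrophy and autophagy genes 7 were called, and 3 with the series as a block or without the arrays with high Alb. Mstn, the growth inhibitor myostatin, peaked at ZT18.6 ± 0.69 h (0.41 ± 0.074, adjusted p = 0.00459), and Gabarapl1, an autophagosome protein, at ZT1.87 ± 0.66 h (0.26 ± 0.045). Of 18 cell cycle inhibitors and p53 targets 6 were called, and 6 with the series as a block. Gadd45g, a stress and growth arrest gene, was 6.66, 7.09 and 7.21 at ZT0 and 8.47, 8.32 and 8.47 at ZT12, with an amplitude of 0.72 ± 0.071 and a peak at ZT13.1 ± 0.38 h (adjusted p = 5.02e-06). Cdkn1a was 9.62, 9.58 and 9.97 at ZT0 and 8.79, 8.81 and 8.47 at ZT20, with an amplitude of 0.53 ± 0.075 and a peak at ZT2.98 ± 0.55 h (adjusted p = 0.000462). Trp53inp1, a p53 target, had 0.45 ± 0.049 at ZT8.94 ± 0.41 h.

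Of 18 immediate early genes 3 were called, all with peaks from ZT20 to ZT22, namely Atf3 (0.59 ± 0.069, peak ZT20.4 ± 0.45 h, adjusted p = 5.14e-05), Nr4a3 (0.48 ± 0.084, peak ZT20.7 ± 0.67 h) and Fos (0.25 ± 0.060, peak ZT21.4 ± 0.92 h, adjusted p = 0.0454). Fos lost its call without any 1 of 13 arrays. Of 16 heat shock genes (6.2% called, near the 4.47% of all genes) the 1 called was Hspa1a (0.39 ± 0.089, peak ZT20.4 ± 0.86 h, adjusted p = 0.0292). Cirbp, a cold-inducible RNA-binding protein, had the opposite phase (0.17 ± 0.038, peak ZT9.32 ± 0.85 h, adjusted p = 0.0264). Both calls were lost with the series as a block and without the arrays with high Alb.

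Of 14 genes listed as circulating and angiogenic signals, which include the nuclear protein gene Ankrd1, 5 were called. The arrays read whole muscle, so the cells that hold these transcripts are not known from them. Ccn2, a matricellular growth factor, was 10.05, 10.17 and 10.20 at ZT4 and 11.58, 11.02 and 11.33 at ZT16, with an amplitude of 0.63 ± 0.076 and a peak at ZT17.2 ± 0.46 h (adjusted p = 7.36e-05). Its relative Ccn1 peaked at ZT21.0 ± 0.56 h (0.47 ± 0.069), Vegfa, the main angiogenic factor, at ZT22.9 ± 0.54 h (0.25 ± 0.036), Angpt1, a vessel-stabilising factor, at ZT8.53 ± 0.55 h (0.44 ± 0.064), and Metrnl, a secreted factor, at ZT23.0 ± 0.60 h (0.30 ± 0.047). Of 20 matrix genes 2 were called, Eln (0.23 ± 0.044, peak ZT21.4 ± 0.72 h) and the collagen chaperone Serpinh1 (0.23 ± 0.049, peak ZT22.1 ± 0.81 h).

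Markers of other cells of the muscle gave small numbers of calls from short lists, against 4.47% of all genes called. These counts do not show that such markers were less often rhythmic than all genes. Of 10 endothelial genes Kdr, the receptor of Vegfa (0.37 ± 0.050, peak ZT0.15 ± 0.51 h), and Cldn5, a tight junction gene (0.39 ± 0.054, peak ZT3.18 ± 0.53 h), were called. The mean of the list ran from 9.06 to 9.53 per array. Scx of tendon, Acta2 of smooth muscle, Hbb-b1 of red cells and Sdc4, a satellite cell marker found in other cells too, were each the only call of their lists, and that of Hbb-b1 was lost without any 1 of 14 arrays. None of the 7 adipocyte, 9 macrophage, 10 leukocyte, 5 Schwann cell, 7 proliferation and 10 liver genes was called. In the first 4 of these and the proliferation list the smallest adjusted p were those of Fabp4 (0.151), Cd163 (0.0513), Cd79a (0.528), Sox10 (0.347) and Bub1 (0.495). The liver list averaged 5.54 in the median array and 7.53 in replicate C at ZT4.

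Outside these lists, several of the clearest rhythms belonged to genes of other kinds. Tmem171, which encodes a transmembrane protein, read 8.51, 9.05 and 8.99 at ZT0, 8.38, 8.28 and 8.46 at ZT4, 7.16, 7.02 and 6.94 at ZT8, 6.45, 6.92 and 6.42 at ZT12, 7.12, 7.08 and 7.00 at ZT16, and 7.88, 8.47 and 7.94 at ZT20. The ZT0 arrays were above all others and the ZT12 arrays below, with an amplitude of 1.15 ± 0.066, a peak at ZT0.25 ± 0.22 h and an adjusted p of 3.7e-09. Otud1 peaked in the dark phase. It was 7.63, 7.67 and 7.67 at ZT4 and 10.21, 9.73 and 9.37 at ZT16, with an amplitude of 1.04 ± 0.10 and a peak at ZT17.5 ± 0.38 h (adjusted p = 4.77e-06). Cep85l, a centrosomal gene (0.81 ± 0.053, peak ZT12.7 ± 0.25 h), Klhl38, a kelch-like gene (0.78 ± 0.065, peak ZT8.88 ± 0.32 h), Pdcd4, an inhibitor of translation (0.71 ± 0.057, peak ZT8.58 ± 0.31 h), and Chac1, which degrades glutathione (0.99 ± 0.15, peak ZT9.46 ± 0.59 h), followed. Slc25a22, a mitochondrial glutamate carrier, peaked at ZT7.97 ± 0.31 h (0.58 ± 0.048), and Spsb4 at ZT21.8 ± 0.31 h (0.47 ± 0.038).

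The remaining named genes are given by the window of their peak. Around ZT0 they were Dyrk2 (0.69 ± 0.047), Ppp1r27 (0.60 ± 0.047) and Lrrc30, a leucine-rich repeat gene of muscle (0.76 ± 0.058). Around ZT8 they were Zc3h6 (0.56 ± 0.048) and Aox1, aldehyde oxidase (0.49 ± 0.049). Around ZT4 the genes of smallest p, after Clock and the magnesium transporter family gene Slc41a3 (0.55 ± 0.043, peak ZT2.97 ± 0.30 h), were Inpp4b, a phosphoinositide phosphatase (0.38 ± 0.047), Anxa5 (0.32 ± 0.043), Cldn5 and Enox1 (0.25 ± 0.036). Around ZT16 they were Slc46a3 (0.44 ± 0.039), Cntfr, a cytokine receptor (0.65 ± 0.064), Klhl33 (0.46 ± 0.045), Fmo2 (0.61 ± 0.060) and Mid1ip1 (0.68 ± 0.068) beside Otud1. Around ZT20 they were Tiam2 (0.58 ± 0.050), Best3 (0.47 ± 0.044), Arid5b (0.43 ± 0.040) and Acvr1, an activin-type receptor (0.43 ± 0.044), beside Nfil3 and Spsb4. Mir1a-2, a muscle microRNA locus, had a fitted amplitude of 1.35 ± 0.29, exceeded only by Nr1d1 and Ciart among called genes, with a wide standard error. Its ZT12 arrays read 7.47, 4.42 and 3.95, and its adjusted p of 0.0217 became 0.0668 without the first of these.

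Against the TA of the same animals, which is a fast muscle, the soleus shared part of its rhythms. In the TA 398 genes were called (1.97%). Of these 237 were called in both, which is 26.2% of the soleus genes and 59.5% of the TA genes. Some TA arrays stood further from the other arrays of their time than any soleus array. The SD over genes of that difference was 0.408 and 0.328 in TA replicates A and C at ZT0 and 0.323 in C at ZT8. In the soleus it was at most 0.275. The part of this spread in the TA count and the overlap was not tested. Peaks of the 237 lay within 2 h of each other for 192, with a median difference of 0.29 h (soleus later), and the fitted amplitude was larger in the soleus for 147. A difference in rhythm between the muscles was called for 57 genes (0.282%), 39 with the larger amplitude in the soleus, and 45 of the 57 were rhythmic in the soleus. With the series of animals as a block 9 genes were called, all of them among the 57, and with BM3 animals alone 7, of which 4 were among the 57. Of the 26 named genes that differed, 6 were called with the series as a block, namely Tmem171, Arrdc3, Pim1, Aox1, Rnf122 and Spsb4. With BM3 animals alone Tmem171, Arrdc3 and Pim1 were called. The other 20 lost their call under the block.

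Tmem171 had the smallest p of the 57. In the TA it read 6.06 to 6.69 with a median of 6.26, a range that overlapped with only 2 soleus arrays, both of ZT12, with an amplitude of 0.11 ± 0.056 against 1.15 ± 0.066 in the soleus (adjusted p of the difference = 7.88e-06). Fzd9, a Wnt receptor, was similar, 10.83, 10.83 and 10.97 at ZT0 and 10.06, 9.56 and 9.26 at ZT12 in the soleus and 7.65 to 8.11 with a median of 7.92 in the TA (amplitudes 0.64 ± 0.065 and 0.068 ± 0.044, adjusted p = 0.000661, and 0.209 under the block). For other genes the fitted peaks lay apart, but the test takes amplitude and phase together, and phase alone was not tested. Arrdc3, an arrestin-domain gene of energy balance, peaked at ZT11.9 in the soleus and ZT17.1 in the TA (amplitudes 0.56 ± 0.069 and 0.40 ± 0.077, adjusted p = 3.59e-05), although its soleus rhythm was not called with the series as a block. Metrnl peaked at ZT23.0 and ZT13.8 (adjusted p = 0.000559, and 0.136 under the block) and Cpeb1, a regulator of polyadenylation, at ZT10.3 and ZT1.07 (adjusted p = 0.000559, and 0.153 under the block). Pim1, a kinase, was the reverse case. It spanned 7.25 to 7.90 with a median of 7.47 in the soleus (adjusted p of its rhythm = 0.29) and ran from 7.64 to 9.43 with a median of 8.32 in the TA, with amplitudes of 0.13 ± 0.047 and 0.81 ± 0.051 (adjusted p of the difference = 8.69e-05).

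Among clock genes Per3, Nr1d2 and Nr1d1 passed the threshold for a difference between the muscles, and none of them did with the series as a block (adjusted p = 0.234, 0.516 and 0.249). Without the arrays with high Alb Nr1d1 passed it (0.0454) and Per3 and Nr1d2 did not (0.0534 and 0.0712). Per3 had an amplitude of 0.98 ± 0.045 in the soleus and 0.66 ± 0.052 in the TA (adjusted p = 0.00372), and Nr1d2 of 0.58 ± 0.039 and 0.29 ± 0.043 (adjusted p = 0.00752). Nr1d1 peaked at ZT6.95 in the soleus and ZT5.86 in the TA (amplitudes 1.43 ± 0.084 and 1.17 ± 0.053, adjusted p = 0.0333). Arntl (1.34 ± 0.057 and 1.09 ± 0.072, adjusted p = 0.0902), Npas2 (0.303) and Per2 (0.188) did not pass the threshold. Of the other genes above, Mylk4 (0.80 ± 0.082 against 0.21 ± 0.036, adjusted p = 0.00403), Sgk1 (0.47 ± 0.050 against 0.077 ± 0.057, 0.0355) and Angptl4 (0.79 ± 0.11 against 0.31 ± 0.073, 0.0372) had larger fitted amplitudes in the soleus. Under the block their adjusted p were 0.0705, 0.491 and 0.23. Fbxo32 peaked at ZT8.04 in the soleus and at ZT3.68 in the TA (adjusted p = 0.0286, and 0.688 under the block).

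**Figure D5:**
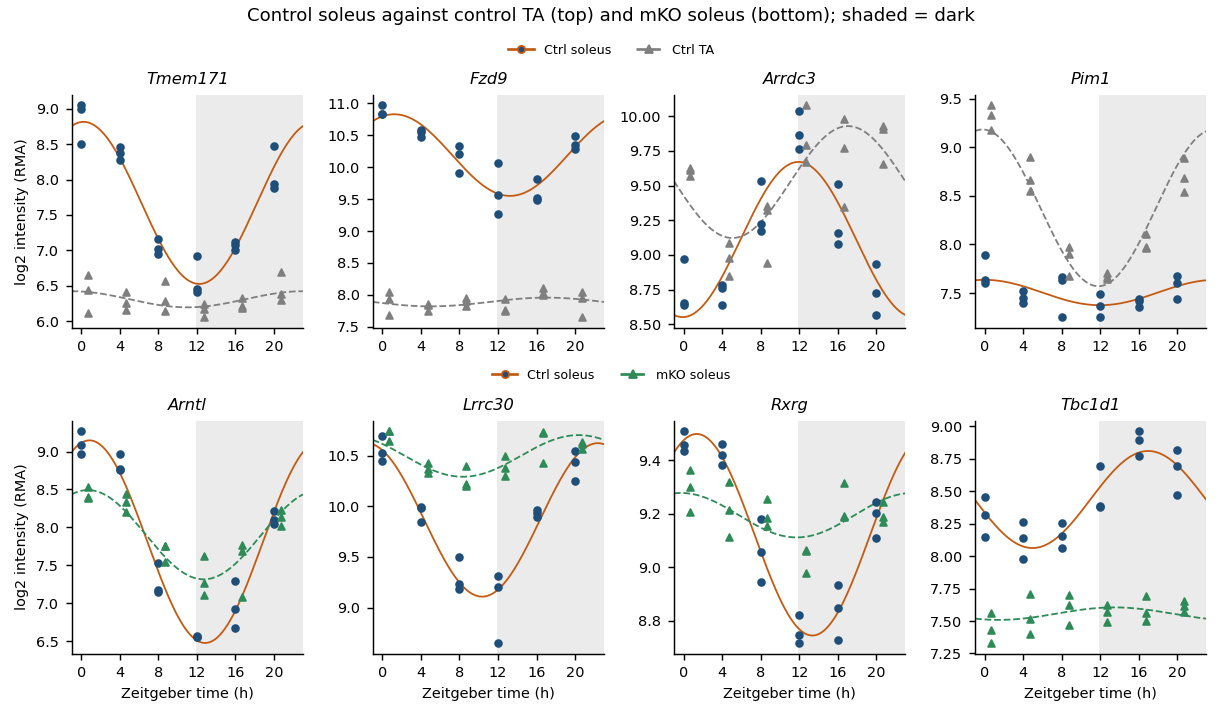
Log2 intensity against Zeitgeber time in hours for control soleus (circles, solid cosine fit) with control TA (triangles, dashed fit, top row) or mKO soleus (triangles, dashed fit, bottom row), 1 point per array, 18 arrays per group, dark phase shaded. Triangles are shifted to the right for legibility, and vertical axes differ between panels. Tmem171 and Fzd9 are rhythmic and higher in the soleus, Pim1 is rhythmic in the TA, and Arntl, Lrrc30, Rxrg and Tbc1d1 have larger amplitudes in the control than in the mKO soleus.

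Against the soleus labelled mKO the targeted gene is given first. Arntl in the mKO soleus read 8.53, 8.38 and 8.40 at ZT0 and 7.62, 7.11 and 7.27 at ZT12, where the control read 9.09, 8.97 and 9.27 and 6.55, 6.57 and 6.55. Its amplitude was 0.59 ± 0.057 in the mKO and 1.34 ± 0.057 in the control (adjusted p of the difference = 1.33e-05), so the transcript was lower at ZT0 and higher at ZT12 than in the control. Where its probes lie relative to the floxed part was not analysed here, so the probe set is no full check of the labels, and directions below rest on them. The mKO soleus still had 1007 genes called by the cosine (4.98%), of which 480 were among the 904 of the control (53.1% of the control's).

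A difference in rhythm from the mKO soleus was called for 8 genes (0.0395%), each with the larger amplitude in the control. Lrrc30 ran from 10.53, 10.45 and 10.70 at ZT0 to 9.20, 8.65 and 9.31 at ZT12 in the control and stayed at 10.20 to 10.74 with a median of 10.47 in the mKO (amplitudes 0.76 ± 0.058 and 0.21 ± 0.039, adjusted p = 4.79e-05). Rxrg had 0.38 ± 0.031 and 0.083 ± 0.033 (adjusted p = 0.000616). Tbc1d1 had 0.37 ± 0.046 and 0.048 ± 0.038, with every mKO array (7.33 to 7.71 with a median of 7.57) below every control array (adjusted p of the rhythm difference = 0.0249). The others were Ptpn4, a tyrosine phosphatase (0.45 ± 0.042 and 0.16 ± 0.037, 0.0155), Slc41a3 (0.55 ± 0.043 and 0.22 ± 0.039, 0.025), Dyrk2, a kinase (0.69 ± 0.047 and 0.31 ± 0.047, 0.0315), and Ppp1r3c (0.98 ± 0.065 and 0.67 ± 0.056, 0.0459). The calls of Tbc1d1, Slc41a3, Dyrk2 and Ppp1r3c were lost without any 1 of 2, of 3, of 6 and of 12 control arrays, and among BM3 animals alone no gene was called. BM3 animals alone leave no mKO array at ZT12 or ZT20 and no control array at ZT12. At ZT20 every control array is BM3 and no mKO array is, so series is in part confounded with genotype and time. With the series as a block 6 of the 8 were called, and Dyrk2 and Ppp1r3c were not (adjusted p = 0.139 for both). Ptpn4 (0.0607) and Ppp1r3c (0.365) were not called without the arrays with high Alb.

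Many control rhythms were not shown to differ from the mKO soleus, which does not show that they are alike. Nr1d1 had amplitudes of 1.43 ± 0.084 and 1.40 ± 0.093 (adjusted p = 0.997), Npas2 of 1.29 ± 0.10 and 0.90 ± 0.067 (0.836) and Per3 of 0.98 ± 0.045 and 0.89 ± 0.067 (0.959). Ucp3 had 1.003 ± 0.10 and 1.14 ± 0.13 (0.985), Otud1 1.04 ± 0.10 and 1.28 ± 0.10 (0.946) and Mylk4 0.80 ± 0.082 and 0.91 ± 0.13 (0.995). Both comparisons use the same 18 control soleus arrays, so their results are not independent of each other.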

How the data were processed

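Total RNA of soleus and TA was measured on expression arrays, 1 muscle of 1 animal per array. The authors deposited log2 intensities, made with RMA per the submitters' processing notes. RMA corrects background, quantile-normalises all arrays together and summarises probes, which can shrink small changes and lets each array depend on the others. Scanner values were not used here. Of 21225 deposited probe sets, 20239 have 1 gene symbol, all matched to RefSeq, and 986 without one were left out. No filter was applied to dim genes.

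limma 3.58.1 in R 4.3.3 fitted the deposited values with lmFit and eBayes, as a 24 h cosine, as 6 times, as steps of 4 h and as contrasts 12 h apart. Rhythms were compared with TA minus soleus differences within animals, and with genotype by cosine terms against mKO. Adjusted p is Benjamini-Hochberg over all 20239 genes, with a threshold of 0.05. Tests were tried on simulated data. Tables and plots used Python 3.11.15, pandas 2.3.3 and matplotlib 3.10.9. Upstream software versions are not given in the sources used here.

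The members and the gene lists were chosen with earlier results of these data known. Named are all measured clock genes, the 20 genes of smallest cosine p, the 15 largest amplitudes, the 6 smallest p in each peak window, the 10 smallest p for departure, the 3 largest changes each way in each step, up to 4 called members of each list (or the 1 of smallest p), and the 10 smallest p of each difference in rhythm. Genes known by a model name are not named. Alternatives were moderation with a trend, median and quantile scaling, a filter on dim genes, array weights, blocks, a fit of 36 soleus arrays and omission of ZT12 or of single arrays. The replicate letters were not used as pairs, since each soleus array came from a different animal. Same-letter deviations correlated at a median of 0.0351 (from -0.368 to 0.373), and those of other letters at -0.0188. Of 45 same-letter pairs 14 were over 0.1. These values do not show whether arrays of a letter were handled together.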

Additional observations from a re-analysis of the deposited data

Results flagged for a closer look

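A test of the difference itself set apart 57 genes whose daily rhythm differed between control soleus and control TA and 8 that differed between control and mKO soleus (limma, adjusted p under 0.05). With the animals' series as a block 9 of the 57 were called, and of the 26 named here these were Tmem171, Arrdc3, Pim1, Aox1, Rnf122 and Spsb4. The other 20 named calls were lost. Between soleus and TA the smallest adjusted p were those of Tmem171 (7.88e-06), Arrdc3 (3.59e-05), Pim1 (8.69e-05), Cpeb1 (0.000559) and Metrnl (0.000559). Vwa3a, Fzd9, Aox1 and Rnf122 shared an adjusted p of 0.000661. Vwa3a had an amplitude of 0.43 ± 0.047 in the soleus and 0.012 ± 0.059 in the TA. Aox1 peaked at ZT9.88 and ZT14.2, and Rnf122 at ZT5.76 and ZT21.6. Spsb4 (0.47 ± 0.038 in the soleus and 0.035 ± 0.058 in the TA, adjusted p = 0.000681), Slc41a3 (0.55 ± 0.043 and 0.17 ± 0.034, 0.00295) and Tiam2 (0.58 ± 0.050 and 0.061 ± 0.087, 0.00786) had larger fitted amplitudes in the soleus. Klhl38 peaked at ZT8.88 and ZT5.87 (0.00127).

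The other named genes that differed from the TA were Per3 (0.00372), Mylk4 (0.00403), Tiparp (0.00585), Nr1d2 (0.00752), Cdc14a (0.0193), Colq (0.0257), Fbxo32 (0.0286), Hdac4 (0.0317), Nr1d1 (0.0333), Best3 (0.0342), Sgk1 (0.0355), Dyrk2 (0.0372) and Angptl4 (0.0372), all given as adjusted p from limma. Against the mKO soleus the 8 were Arntl (1.33e-05), Lrrc30 (4.79e-05), Rxrg (0.000616), Ptpn4 (0.0155), Tbc1d1 (0.0249), Slc41a3 (0.025), Dyrk2 (0.0315) and Ppp1r3c (0.0459). Slc41a3 and Dyrk2 are in both sets, which share the control soleus arrays.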

How the results depend on the processing

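No call changed direction under any alternative run. Of 904 rhythmic genes 466 were called with the animals' series as a block, 244 among BM3 animals and 499 without ZT12, and 757 to 909 without single arrays. Of 126 list members called 57 were called among BM3 animals. Time as a factor, with 449 calls, gave 2444 with array weights, 231 with the series block, 140 among BM3 animals, 713 with all 36 soleus arrays, 268 without ZT12 and 284 with the fast fibre covariate. Departure from the cosine gave 18 with array weights and 0 to 2 without single arrays. Steps, with 98 genes, gave 157 with a trend, 162 among genes above the median level, 1327 with array weights, 167 with 36 arrays, 63 without the arrays with high Alb, 62 with the fast fibre covariate and 62 (without ZT12 B) to 111 without single arrays.

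ZT12 against ZT0 (397) gave 621 with array weights, 87 with the series block, 232 without the arrays with high Alb, 230 with the fast fibre covariate and 223 to 449 without single arrays, with 262 without ZT0 C, 223 without ZT12 B and 233 without ZT12 C. ZT16 against ZT4 (186) gave 1280 with array weights, 114 with the series block, 100 among BM3 animals, 52 without high Alb and 109 to 203 without single arrays, with 109 without ZT4 B and 121 without ZT16 C. ZT20 against ZT8 (170) gave 277 above the median level, 406 with array weights, 102 among BM3 animals and 83 to 192, with 83 to 103 without any 1 array of ZT8 or ZT20. Differences from the TA (57) gave 113 above the median level, 102 with array weights, 9 with the series block, 7 among BM3 animals, 30 without high Alb and 31 to 83, with 31 without ZT12 C and 32 without ZT20 B. Differences from mKO (8) gave 14 above the median level, 13 with array weights, 0 among BM3 animals and 4 (without ZT16 C) to 13 (without ZT16 A). BM3 animals hold no mKO soleus array at ZT12 or ZT20. At an adjusted p under 0.01 the windows from ZT0 to ZT20 held 90, 31, 90, 112, 79 and 83 peaks.

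With the replicate letter as a replicate block 914 genes were called. The same letter at different times stands for different animals. The causes of these shifts were not tested. With 3 animals at a time, 6 times and 1 day sampled, rhythms shorter than 8 h or repeats from day to day could not be examined.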
